A study of Mus musculus with 1504 samples.

Results

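The cells described here are 215 lung fibroblasts of the column set Mural3 that held almost no reads of Aqp1, a water channel, and of Col4a3 and Col4a4, collagen IV chains of basement membranes. They were chosen by the measured levels of 6 genes from 374 Mural3 columns of a table of 1504 single cells. A member had at least 500 CPM (reads of a gene as a share of the cell's reads, scaled to 1000000) of Dcn, the matrix proteoglycan decorin, which 360 Mural3 columns reached. It had less than 10000 CPM of Sftpc plus Scgb1a1, the secreted products of alveolar and airway epithelium, which left 313 columns. It also had less than 50 CPM of Col4a3 plus Col4a4 and less than 100 CPM of Aqp1. The members were 68.7% of those 313 fibroblasts (63.2 to 73.8%, Clopper-Pearson 95% interval). They are compared with the other 98 fibroblasts, of which 42 were at or above only the Col4a3 plus Col4a4 limit, 53 only the Aqp1 limit and 3 both. The first 2 sets are called the Col4a3/Col4a4 class and the Aqp1 class.

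Lung cells of adult C57BL/6 mice, 12 to 15 weeks old by the sample labels and 10 to 19 weeks old by the series design, were placed by a fluorescence sorter in 384-well plates for SMART-seq2, which sequences whole polyadenylated transcripts. The labels list 374 cells of Pdgfrb(BAC)eGFP mice, 361 of Pdgfrb(BAC)eGFP/NG2dsRed mice and 769 of Cldn5(BAC)eGFP mice; no treatment or gene deletion is named. In these lines a fluorescent protein is driven by regulatory DNA of Pdgfrb, of NG2 (the product of Cspg4) or of Cldn5, and Pdgfrb is active in fibroblasts as well as in pericytes and smooth muscle. No column name gives a genotype, an animal or a plate, so members and others each count as 1 sample, no test was possible and no p-value is given. The Mural3 set has as many columns as there are Pdgfrb(BAC)eGFP labels, 374, but no name ties them. The genotype may therefore differ between Mural3 and the Mural1 and Mural2 sets used below.

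Lung fibroblasts lie in the alveolar walls and in the adventitia, the connective tissue sleeve of larger vessels and airways. Beside matrix they secrete chemokines that attract leukocytes, complement proteins, and growth factors or their antagonists that act on neighbouring epithelium, vessels and immune cells. They also hold enzymes that turn vitamin A into retinoic acid, a signal that acts on transcription.

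Ccl8 encodes a chemokine that attracts leukocytes, and Aox3 an aldehyde oxidase, an enzyme that oxidises aldehydes and nitrogen-containing rings. Both had been named as marks of these cells from the same data, so their difference is a description. Their promoters are shown because Ccl8 had the largest fold in the members' favour of all genes past the size rule given below, and Aox3 marked members that Ccl8 did not. The sequences are 300 bases around the start site on the plus strand from RefSeq (GRCm38.p6), at chr11:82114935-82115234 for Ccl8 and chr1:58112886-58113185 for Aox3, with capitals for any match to the motifs searched.
Ccl8 promoter: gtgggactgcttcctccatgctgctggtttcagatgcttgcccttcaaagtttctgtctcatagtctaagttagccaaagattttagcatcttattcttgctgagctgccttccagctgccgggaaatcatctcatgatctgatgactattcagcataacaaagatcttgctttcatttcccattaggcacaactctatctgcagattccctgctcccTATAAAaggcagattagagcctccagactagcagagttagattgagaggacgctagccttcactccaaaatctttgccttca
Aox3 promoter: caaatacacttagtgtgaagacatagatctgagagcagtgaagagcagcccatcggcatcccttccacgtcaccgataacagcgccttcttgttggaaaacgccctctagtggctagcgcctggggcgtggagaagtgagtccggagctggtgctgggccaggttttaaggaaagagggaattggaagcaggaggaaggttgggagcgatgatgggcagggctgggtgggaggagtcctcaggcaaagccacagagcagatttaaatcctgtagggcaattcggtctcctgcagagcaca
On both strands, 3 motifs were searched: TATAAA (a core promoter element), TTCNNNGAA (a STAT-type site) and TGANTCA (an AP-1-type site). The Ccl8 window held TATAAA, which starts 32 bases before the start site, and no other match. The Aox3 window held none of the 3. Among 32851 RefSeq promoters of this length, 13.6% held TATAAA, 8.30% TTCNNNGAA and 7.81% TGANTCA.

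Reads per cell ran from 126320 to 600017 over the members, with a median of 377665 reads and 3891 genes, and from 101199 to 579937 over the others, with medians of 369648 reads and 3946.5 genes. After each cell was thinned to 50000 reads, 95.9% of marker and cell pairs for 10 general fibroblast markers had a read in the members and 94.6% in the others; Dcn, which the choice of cells required, is left out of these shares. Pdgfra, a receptor found on most fibroblasts, stood at 570 CPM in the members and 649 CPM in the others, and the eGFP reporter at 249 CPM in the members and 252 CPM in the others. Of 16 adventitial fibroblast markers, Dcn included, the median member had a read of 13 and the median other cell of 12. These markers summed to 51176 CPM in the members, 57768 CPM in the Col4a3/Col4a4 class and 29841 CPM in the Aqp1 class. The 14 alveolar fibroblast markers summed to 7545 CPM in the members, 4709 CPM in the Col4a3/Col4a4 class and 7693 CPM in the Aqp1 class, with a read in 36.9% of pairs in the members, 34.4% in the Col4a3/Col4a4 class and 45.6% in the Aqp1 class. Reads of the 12 endothelial markers made up 195 CPM in the members and 232 CPM in the others, with a read in 6.7% of pairs in the members and 9.3% in the others; Robo4 was at 0 in the members. The 10 alveolar epithelial markers had a read in 9.4% of the members' pairs and 12.8% of the others', the 11 airway epithelial markers in 10.2% of the members' and 13.5% of the others', and the 11 leukocyte markers in 5.7% of the members' and 6.1% of the others'. Sftpc, an alveolar epithelial product, had a read in 31.6% of members after thinning, at a median of 4.14 CPM, so a share of cells with a read is not by itself a share of expressing cells. Leukocyte markers reached 65789 CPM in 1 member and 25628 CPM in 1 of the others. The part of these reads in the differences below was not tested.

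Values next to the limits show how sharp the choice was. Col4a3 plus Col4a4 was 0 in 178 members, and the highest were 48.2, 47.3 and 33.3 CPM; just outside lay 52.4, 72.0 and 81.2 CPM, and the median outside was 268 CPM. Aqp1 was 0 in 180 members, with 94.4, 49.8 and 37.7 CPM as the highest, against 129, 141 and 145 CPM just outside and a median of 1593 CPM. Dcn was 532, 1175 and 1345 CPM in the lowest members and 478, 475 and 345 CPM just below the limit. Sftpc plus Scgb1a1 reached 8346, 7994 and 7733 CPM in the highest members and started at 11482, 12099 and 12598 CPM outside. In summed reads, the members had 30458 CPM of Dcn and the others 22284 CPM. The values next to the limits follow from how the cells were chosen. The Dcn limit was the same for members and others, and the source of the Dcn difference between them was not tested. Dcn, Ccl8 and Aox3 together summed to 30651 CPM in the members, 32443 CPM in the Col4a3/Col4a4 class and 15058 CPM in the Aqp1 class. Nearly all of the members' sum was Dcn, and the sum was not higher in the members than in the Col4a3/Col4a4 class.

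A gene passed the size rule when the higher side had at least 50 CPM of summed reads, at least 25% of its cells held a read after thinning, and the fold was at least 2. Of 21942 genes, 45 were higher in the members (0.205%) and 84 lower (0.383%). A gene too low in level or cell share on both sides could not pass. In the lists below, a gene that did not pass may thus have been too low. The shares of all genes, 0.205% higher and 0.383% lower, are the background for every list count below. No list count is read as a result about its list. Most expressed genes differed little: of the 3770 that reached the level and cell share on either side, 96.6% differed by less than 2-fold. Their median log2 difference was -0.09, and the split moved with the scale: TMM factors shifted the median gene by 0.10 in the members' favour and gave 67 higher and 62 lower genes, and median-ratio factors gave 63 and 64. Over 12 other ways of scaling or choosing the cells, 24 of the higher and 35 of the lower genes passed every time. Of the lower genes described below, Tgfbr1, Aldh1a1, Aspn, Osr2, Gria1, Fam105a and Wisp2 lost their call in 1 of the 12, and a larger number is given beside its gene. Without the 14 members and 15 others that held at least 4 markers of another cell type, 113 of the 129 genes kept their call.

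Chemokine genes were among the higher genes, with Ccl8 first by fold. Ccl8 ran from 0 to 1419 CPM over the members, with a median of 0 and an upper quartile of 53.5 CPM, and from 0 to 250 CPM over the others, with a median and upper quartile of 0. Most cells on either side thus had no read. After thinning, a read was found in 33.0% of members (26.8 to 39.7%) and 12.2% of the others (6.49 to 20.4%). In summed reads Ccl8 had 76.7 CPM (74.8 to 78.7) in the members and 13.2 CPM (12.0 to 14.4) in the others, a 5.82-fold difference (5.29 to 6.41). Ccl11, the eosinophil attractant eotaxin, had 869 CPM in the members, in 69.8% of cells, and 396 CPM in the others, in 38.8% of cells. Its level was nearly the same in the members and the Col4a3/Col4a4 class, and it passed against the Aqp1 class alone. Cxcl12, the ligand of Cxcr4 that holds and guides leukocytes and progenitors, had 1699 CPM in the members and 842 CPM in the others, and its median cell had 1039 CPM in the members and 393 CPM in the others. Il6, the inflammatory cytokine interleukin 6, had 95.1 CPM in the members and 46.8 CPM in the others.

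Of 24 chemokines and cytokines measured, these 4 were higher, none was lower and 20 did not pass, beside 0.205% of all 21942 genes that were higher. Only 9 of the 24 reached the level and cell share of the rule. The median log2 difference of the 18 with at least 10 CPM on a side was 0.36, beside -0.09 over all 9627 genes at that level. Ccl8 had been named from these data and the list was chosen with earlier results known. The count and the median are thus a description and not a test of chemokines as a group. Among those that did not pass, Ccl2, which attracts monocytes, had a read after thinning in 0.93% of members and 1.02% of the others. Ccl7 had a read in 4.19% of members and 5.10% of the others. Neither gene reached the cell share of the rule on either side, so neither could pass. Cxcl12 and Il6 lay just past 2-fold and dropped below the rule in 4 of the 12 alternatives each. Ccl8 and Ccl11 passed against the pooled others in all 12.

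**Figure D1:**
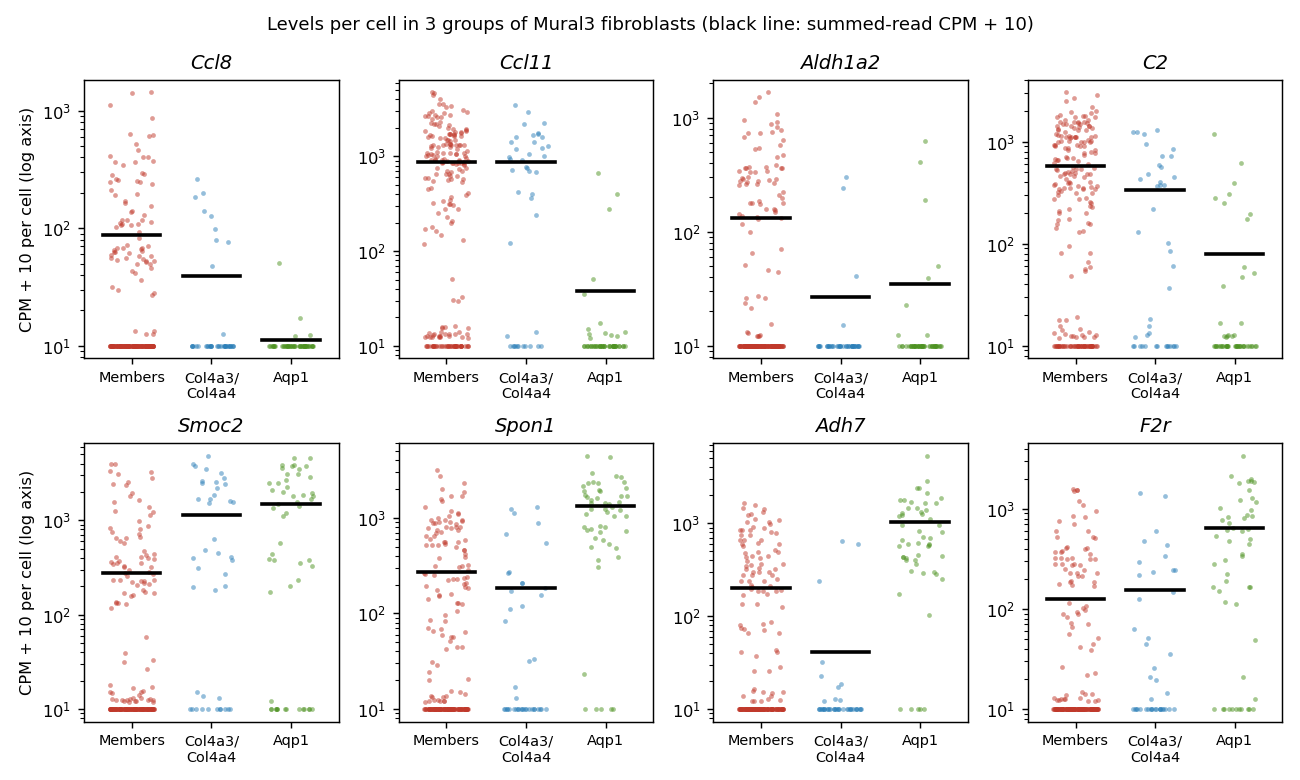
CPM plus 10 (log axis) of 8 genes in each cell of the 215 members, the 42 cells of the Col4a3/Col4a4 class and the 53 cells of the Aqp1 class; each point is 1 cell and the black line is the CPM of the summed reads plus 10. Ccl8 and Aldh1a2 lie highest in the members, whose summed Ccl8 level of 76.7 CPM stands above 29.0 and 1.14 CPM in the classes, while Smoc2 lies lower in the members than in either class.

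Genes of growth factor signals also passed. Gdf10, a ligand of the bone morphogenetic protein (BMP) family, had 879 CPM and a read in 81.9% of members, against 412 CPM and 52.0% of the others. Against the single classes, Gdf10 passed over the Aqp1 class alone. Tgfbr1, the type I receptor of TGF-beta, went the other way, with 27.7 CPM in the members and 64.1 CPM in the others. Both belong to a list of 35 genes of TGF-beta and BMP signalling, of which 2 passed higher and 1 lower. Over all 21942 genes, 0.205% were higher and 0.383% lower. Only 19 of the 35 reached the level and cell share of the rule.

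Wnt5a, a Wnt ligand that acts largely without beta-catenin, was the only gene of 28 in WNT and Hedgehog signalling to pass, with 86.7 CPM in the members and 33.9 CPM in the others. Only 8 of the 28 reached the level and cell share of the rule. Wnt5a lost its call in 3 of the 12 alternatives, among them the mean over cells and the sums of thinned cells. Gas6, which binds the receptors Tyro3, Axl and Mertk, was the only one to pass of 34 niche growth factors, 13 of which reached the level and cell share. Its level was 1720 CPM in the members and 760 CPM in the others, with the median cell at 962 CPM in the members and 499 CPM in the others. Against the single classes, Gas6 passed over the Aqp1 class alone. Fgf10, which drives growth of lung epithelium, did not pass at 96.8 CPM in the members and 72.3 CPM in the others. Outside these lists, the higher genes included Acvr2a, an activin receptor, at 79.2 CPM in the members and 31.5 CPM in the others.

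Complement genes were abundant on both sides. C2, the protease that forms the convertase of the classical pathway with C4, had a median cell of 345 CPM and a highest cell of 3034 CPM in the members, against a median of 2.26 CPM and a highest of 1299 CPM in the others. Its summed level was 574 CPM in the members and 182 CPM in the others, a 3.16-fold difference (3.08 to 3.25). It was the only one of 17 complement genes past the rule, beside 0.205% of all 21942 genes that were higher. Of the 17, 11 reached the level and cell share. Against the single classes, C2 passed over the Aqp1 class alone. C3, the central component, stood at 10270 CPM in the members and 5316 CPM in the others, a 1.93-fold difference just short of the limit. Cfb had 1221 CPM in the members and 772 CPM in the others. The median log2 difference of the 12 complement genes with at least 10 CPM was 0.33.

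Enzymes of retinoid and aldehyde metabolism split in both directions. Of 33 measured, 3 were higher, 3 lower and 27 did not pass, beside 0.205% of all 21942 genes higher and 0.383% lower. Of the 33, 23 reached the level and cell share of the rule. Aldh1a2, which makes retinoic acid, ran from 0 to 1655 CPM over the members and from 0 to 1210 CPM over the others, with a median of 0 on both sides. It had a read in 32.1% of members and 9.18% of the others, and its summed level of 122 CPM in the members was 3.60-fold (3.39 to 3.83) the 34.0 CPM of the others. Aldh1a3, a related retinaldehyde dehydrogenase, had 116 CPM in the members and 53.8 CPM in the others, and Cyp1b1, a cytochrome P450 that also oxidises retinoids, 202 CPM in the members and 99.4 CPM in the others. Both were close to 2-fold and lost their call in some of the 12 alternatives, Aldh1a3 in 4 and Cyp1b1 in 3.

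The 3 lower enzymes had a higher level in the Aqp1 class than in the Col4a3/Col4a4 class. Aldh1a1, the third of the retinaldehyde dehydrogenases named here, had 176 CPM in the members, 275 CPM in the Col4a3/Col4a4 class and 496 CPM in the Aqp1 class. Adh7, an alcohol dehydrogenase that acts on retinol, had 193 CPM in the members, 30.7 CPM in the Col4a3/Col4a4 class and 1020 CPM in the Aqp1 class, so the members lay between the classes and passed the rule against each in opposite directions. Aldh3a1, which removes aldehydes made by lipid oxidation, had 31.7 CPM in the members, 6.16 CPM in the Col4a3/Col4a4 class and 227 CPM in the Aqp1 class. Without plate rows A to D the log2 difference of Aldh3a1 between members and others was -2.79 in place of -2.09.

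Aox3 itself did not pass. It ran from 0 to 883 CPM over the members with a median of 7.15 CPM, and from 0 to 1133 CPM over the others with a median of 0. It had a read in 49.3% of members (42.4 to 56.2%) and 24.5% of the others (16.4 to 34.2%), while its summed level of 116 CPM in the members was 1.56-fold the 74.1 CPM of the others. A single cell held 19.4% of the others' Aox3 reads.

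Several genes outside the lists stood among the 15 with the largest folds in the members' favour. Plac8, a small cysteine-rich protein, had 161 CPM in the members and 49.0 CPM in the others. Cpz, an extracellular carboxypeptidase, had 309 CPM in the members and 101 CPM in the others, and Sned1, a matrix protein, 146 CPM in the members and 55.9 CPM in the others. Maf, a transcription factor, had 54.7 CPM in the members and 21.3 CPM in the others. Fancc, a part of the Fanconi anemia DNA repair complex, had 262 CPM in the members and 78.1 CPM in the others. Serpina3m, of the Serpina3 group of protease inhibitors, had 131 CPM in the members and 33.9 CPM in the others, but its group holds close copies whose reads may have been shared in the counting, so its value is uncertain. Nav2 and Gadd45b were also among the 15. Nav2 had a log2 difference of 1.61, or 2.63 without plate rows A to D.

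Of 28 lipid genes, 1 was higher and 1 lower, and 17 reached the level and cell share of the rule. Over all 21942 genes, 0.205% were higher and 0.383% lower. Ptgs2, the inducible cyclooxygenase of prostaglandin synthesis, was higher at 250 CPM in the members and 112 CPM in the others. Acsl4, which activates fatty acids, was lower at 31.5 CPM in the members and 63.7 CPM in the others. Acsl4 lost its call in 8 of the 12 alternatives, both other scaling factors included. Ptgs2 lost its call in 4, and a single cell held 29.8% of the others' Ptgs2 reads. Apoe, a carrier of lipids, had 4675 CPM in the members and 2559 CPM in the others, and Lpl, which frees fatty acids from lipoproteins, 475 CPM in the members and 238 CPM in the others; neither passed. The 8 lipofibroblast markers measured, which include both, summed to 5341 CPM in the members and 2946 CPM in the others. Most of that sum was Apoe on either side, and none of the 8 passed.

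**Figure D2:**
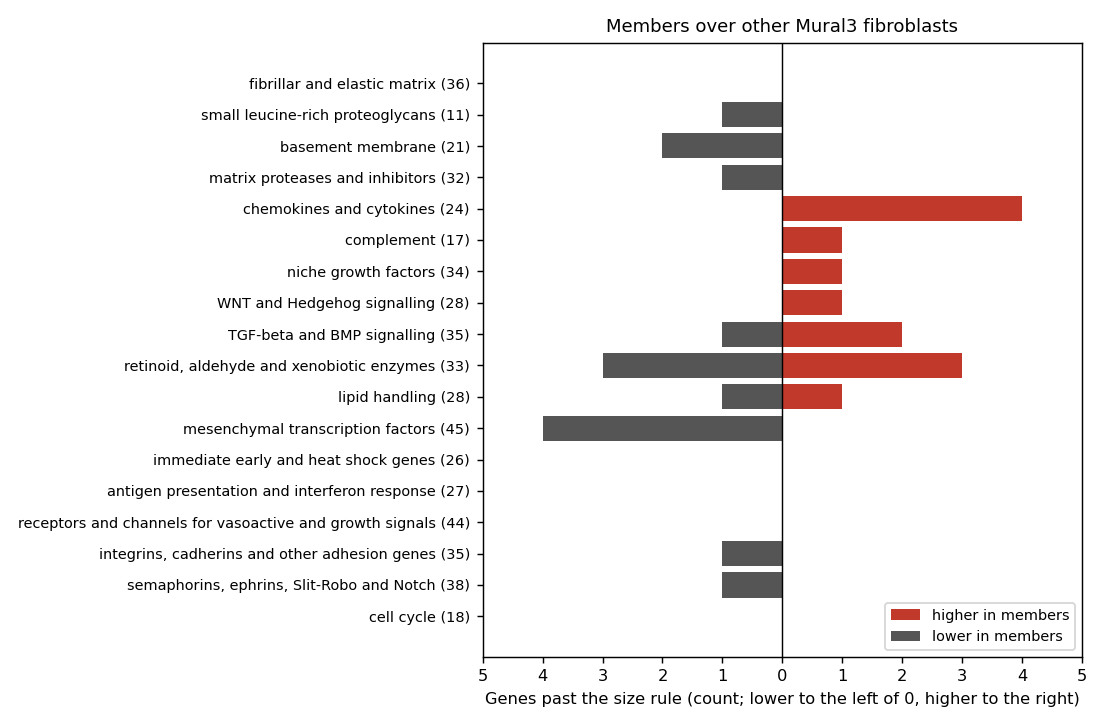
Number of genes past the size rule in each of 18 gene lists, higher in the members (red, right) or lower (grey, left); the number of genes measured stands behind each list name. The 24 chemokines and cytokines gave 4 higher genes, the 45 mesenchymal transcription factors 4 lower genes, and the 36 fibrillar and elastic matrix genes none. In the same order, 9, 22 and 30 genes of these lists reached the level and cell share of the rule.

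None of 36 fibrillar and elastic matrix genes passed. Col1a1 ran from 231 to 32606 CPM over the members with a median of 5966 CPM, and from 831 to 19984 CPM over the others with a median of 4207 CPM; its summed fold was 1.36. Col3a1 and Col1a2 had folds of 1.38 and 1.21. Of 32 matrix proteases and inhibitors only Pcsk6, a proprotein convertase, passed. It had 50.1 CPM in the members and 138 CPM in the others, where 1 cell held 21.0% of its reads. Of 11 small leucine-rich proteoglycans only Aspn, asporin, passed. It had 160 CPM in the members and 397 CPM in the others, where 1 cell held 38.0% of its reads.

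Genes of the basement membrane included a widely detected gene that was lower in the members. Smoc2, a calcium-binding matrix protein that modulates growth factor signals, ran from 0 to 3989 CPM over the members with a median of 0, and from 0 to 7235 CPM over the others with a median of 459 CPM. Its summed level was 264 CPM (261 to 268) in the members and 1338 CPM (1326 to 1350) in the others, 5.06-fold lower (4.98 to 5.15), with a read in 37.2% of members and 69.4% of the others. Smoc2 was lower than in both classes, at 1121 CPM in the Col4a3/Col4a4 class and 1477 CPM in the Aqp1 class. Its relative Smoc1 had 27.9 CPM in the members, 71.2 CPM in the Col4a3/Col4a4 class and 120 CPM in the Aqp1 class. Of the 21 basement membrane genes outside the rule, Smoc2 and Col4a6, another collagen IV chain, were lower and 19 did not pass. Over all 21942 genes, 0.383% were lower, and 14 of the 21 reached the level and cell share of the rule. The median log2 difference of the 19 with at least 10 CPM was -0.21. Col4a6 had 56.8 CPM in the members, 56.6 CPM in the Col4a3/Col4a4 class and 174 CPM in the Aqp1 class, and lost its call against the others in 2 of the 12 alternatives.

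Of 45 mesenchymal transcription factors, 4 were lower, none higher and 41 did not pass, beside 0.383% of all 21942 genes that were lower. Only 22 of the 45 reached the level and cell share of the rule, so the 41 include genes too low to pass. Osr2, an odd-skipped zinc finger factor, had 13.0 CPM in the members and 65.5 CPM in the others, and Tbx4, a T-box factor of lung mesenchyme, 36.0 CPM in the members and 107 CPM in the others. Heyl, a transcriptional target of Notch, had 111 CPM in the members and 257 CPM in the others, and Zeb1, a repressor of epithelial genes, 109 CPM in the members and 227 CPM in the others. Zeb1 lost its call in 3 of the 12 alternatives, under TMM factors, under median-ratio factors and with Dcn of at least 1000 CPM. Tcf21, a factor of lung fibroblasts, did not pass at 146 CPM in the members and 196 CPM in the others. All 4 lower factors passed against the Aqp1 class, and none passed against the Col4a3/Col4a4 class.

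Many of the largest folds against the members were genes that nearly lacked reads in them. Aqp2, a water channel, had 5.40 CPM in the members and 53.0 CPM in the others, and Gria1, a glutamate receptor subunit, 6.32 CPM in the members and 61.6 CPM in the others. Aqp2 lost its call in 4 of the 12 alternatives, among them the mean over cells and leaving out the highest cell of each side. Entpd1, an enzyme that breaks down extracellular ATP, had 22.2 CPM in the members and 170 CPM in the others, and Lamc3, a laminin chain, 33.6 CPM in the members and 216 CPM in the others. In the same order, these 4 genes had 91.6, 93.4, 287 and 368 CPM in the Aqp1 class and 1.90, 23.6, 16.0 and 30.7 CPM in the Col4a3/Col4a4 class. F2r, the thrombin receptor, ran from 0 to 1573 CPM over the members with a median of 0, and from 0 to 3388 CPM over the others with a median of 149 CPM. Its summed level was 116 CPM in the members, 145 CPM in the Col4a3/Col4a4 class and 628 CPM in the Aqp1 class. Itga8, an integrin chain of alveolar fibroblasts and smooth muscle, was the only one of 35 adhesion genes to pass, with 34.9 CPM in the members and 114 CPM in the others. Others of the 15 were Filip1, Plekha6, Fam105a, Dner, Wisp1 and Ptk7, with log2 differences between -2.45 and -1.85.

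No gene passed among 26 immediate early and heat shock genes, 27 antigen presentation and interferon genes, 44 receptors and channels or 18 cell cycle genes, and only Heyl among 38 guidance and Notch genes. In the same order, 22, 14, 14, 0 and 14 genes of these lists reached the level and cell share of the rule on either side. No cell cycle gene could therefore pass. The median log2 differences of the first 3 lists, over genes with at least 10 CPM, were 0.31, 0.16 and -0.33. Lyz2, a leukocyte gene, had 210 CPM in the members and 53.0 CPM in the others but failed the cell share, with a read in 17.2% of members and 13.3% of the others and a highest member of 27083 CPM.

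Set against each class alone, 146 genes were higher in the members than in the Col4a3/Col4a4 class (0.665% of 21942) and 144 lower (0.656%). Against the Aqp1 class 135 were higher (0.615%) and 238 lower (1.08%). These comparisons share the members. Of the 45 higher genes, 15 passed against both classes, among them Ccl8, Serpina3m, Aldh1a2, Fancc, Plac8, Cpz, Sned1, Maf, Wnt5a, Gadd45b, Peg3, Igsf10 and Sdhaf2. A further 19 passed against the Aqp1 class alone, Ccl11, C2, Gas6 and Gdf10 among them, and 11 against the Col4a3/Col4a4 class alone. Ccl11, for example, had 869 CPM in the members, 863 CPM in the Col4a3/Col4a4 class and 28.0 CPM in the Aqp1 class. Of the 84 lower genes, 12 passed against both classes, 59 against the Aqp1 class alone and 12 against the Col4a3/Col4a4 class alone. Wisp2, a CCN-family matrix protein, had 85.7 CPM in the members, 339 CPM in the Col4a3/Col4a4 class and 102 CPM in the Aqp1 class. A single cell held 26.3% of the others' Wisp2 reads, and its call against the pooled others was lost without plate rows A to D, where the log2 difference was -0.60 in place of -1.22.

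The rule asks for a share of cells on the higher side, so the direction of that share is not independent of the fold. Among the 129 genes it lay opposite to the fold in Scp2, a lipid transfer protein, with a read in 67.0% of members and 69.4% of the others beside 92.5 CPM in the members and 42.8 CPM in the others. In 7 of the lower genes and in none of the higher genes, 1 cell held at least 20% of the reads of the higher side. The reads have neither molecular identifiers nor strand, so intervals cover counting error only and reads of overlapping genes on opposite strands cannot be told apart. Fewer cells with a transcript and less transcript per cell cannot be told apart from the summed level alone.

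The same 4 limits were applied to Mural1 and Mural2, columns that took no part in choosing the members. There 128 columns passed the Dcn and epithelial limits, 57 lay within all 4 (38 in Mural1 and 19 in Mural2) and 71 did not. Dcn included, the 57 had 86.0% of general fibroblast marker pairs with a read and the 71 had 93.0%. Chondrocyte and perichondrial markers differed more, with a read in 36.2% of pairs and 5806 CPM in the 57 cells, against 14.3% and 1068 CPM in the 71, whereas the Mural3 members had 38.1 CPM of them. The part of that difference in the values that follow was not tested.

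In Mural1 and Mural2, 216 genes were higher within the limits (0.984%) and 177 lower (0.807%). Of the 45 genes higher in the Mural3 members, 28 were also higher there, or 62.2%, beside 47.0% of the genes that had not passed. In Mural1 alone, added after seeing the data, 22 of the 45 were higher. The share thus moved with the columns used and is not read as a result. Over both sets, 5 of the 45 were past the rule in the same direction, which is 11.1%, beside 0.984% of all 21942 genes. Many of the 21942 were too low to pass, and no share among genes of like level was computed. The count of 5 is thus not read as a result. The 5 were Ccl8, Plac8, Maf, Peg3 and Itm2a, named because of this result. None of the 45 passed in the other direction. Ccl8 had 103 CPM within the limits and 45.7 CPM outside, though the share of cells with a read lay the other way, at 29.8% within and 38.0% outside. Its log2 difference was 1.17 over both sets, 2.72 in Mural1 alone and 1.32 in Mural2 alone, and the 2 sets contributed unequally, with 38 cells within and 33 outside in Mural1 and 19 within and 38 outside in Mural2. Plac8 had 102 CPM within and 47.6 CPM outside, with a read in 40.4% of cells within and 25.4% outside. The log2 difference of Plac8 was 0.37 in Mural1 alone and 1.82 in Mural2 alone. Maf had 1.41 in Mural1 and -0.21 in Mural2, Peg3 1.38 in Mural1 and 0.40 in Mural2, and Itm2a 1.54 in Mural1 and 0.63 in Mural2, so these 4 reached 2-fold in 1 set each. Itm2a lost its call in Mural3 in 2 of the 12 alternatives. Aldh1a2 did not repeat, with 127 CPM within the limits and 154 CPM outside.

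Of the 84 lower genes, 46 were lower in Mural1 and Mural2 as well, or 54.8%, beside 53.0% of the genes that had not passed, so the share was near that background. Past the rule in the same direction were 5 of the 84 (5.95%), Heyl, Wisp1, Wisp2, F2r and Ppp6c, beside 0.807% of all 21942 genes. In the opposite direction passed 4 of the 84, Spon1, Cd82, Pwp1 and Bcl2l1, beside 0.984% of all genes. Many of the 21942 genes were too low to pass, and no share among genes of like level was computed, so neither count is read as a result. F2r had 107 CPM within the limits and 231 CPM outside, with a log2 difference of -1.68 in Mural1 alone and -0.43 in Mural2 alone, and Wisp1 41.7 CPM within and 144 CPM outside. Smoc2 had 818 CPM within and 1029 CPM outside and did not pass. Entpd1 and Lamc3 had 0.636 and 1.27 CPM within and 38.5 and 40.4 CPM outside, below the level set by the rule.

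**Figure D3:**
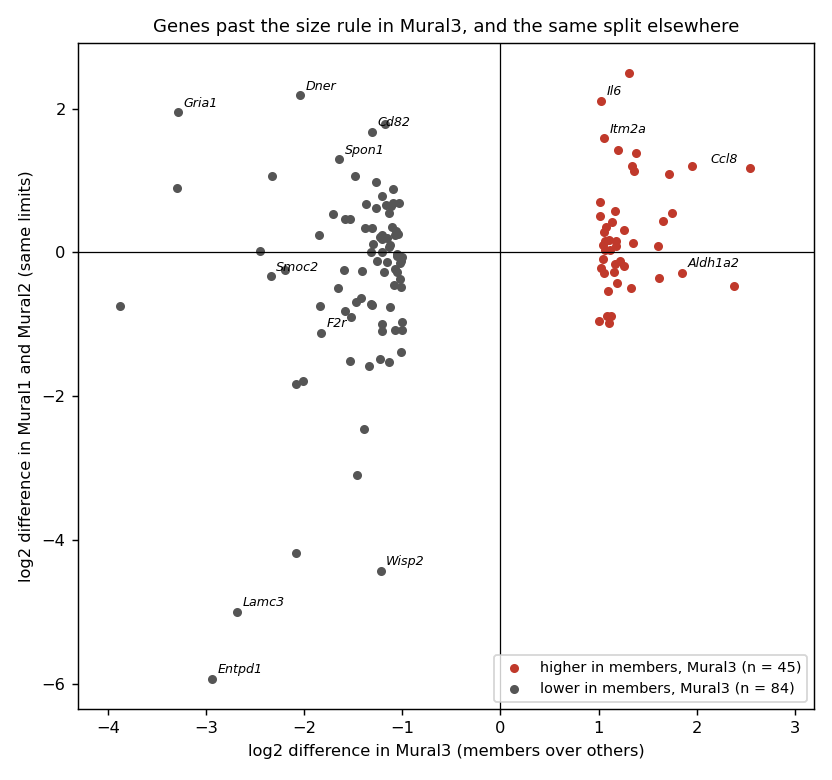
Log2 difference of the 45 higher (red) and 84 lower (grey) genes in Mural3, members over others (horizontal), against the log2 difference of the same 4 limits in Mural1 and Mural2 (vertical); each point is 1 gene. Of the red points 28 lie above 0 and of the grey points 46 lie below 0; Ccl8 stands at 2.54 and 1.17.

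The members were far from uniform. Of 3393 genes with at least 50 CPM in them, the median SD of log2(CPM + 10) over the 215 cells was 1.98. The 10 largest SDs ran from 2.98 for Apod, apolipoprotein D, to 3.91 for Mmp3, the matrix metalloproteinase stromelysin. Mmp3 had a median of 304 CPM and a highest cell of 35065 CPM, with 82 members under 10 CPM, 14 between 10 and 100 CPM and 119 at 100 CPM or more. Lum, lumican, a collagen-binding proteoglycan, had 60 members under 10 CPM, only 3 between 10 and 100 CPM and 152 at 100 CPM or more. Ccl11 showed the same gap, with 68, 4 and 143 members in these ranges. Mfap4, a microfibril protein, had 57, 7 and 151 members, and Tmem176b, a membrane protein, 60, 5 and 150. In these genes the members thus fell largely into cells well above 100 CPM and cells with nearly none. Cells of the Col4a3/Col4a4 class also ranged from no reads to well above 100 CPM in each of them, so such a range was not particular to the members. Nor was the gap limited to the most variable genes. Cct8, at rank 101 of 3393 by SD, had 100, 16 and 99 members in the same ranges. Whether missed transcripts account for the low cells was not tested, so the gap is not read as separate kinds of members. Cyr61, a matricellular protein and immediate early gene, was low in fewer cells, with 26 members under 10 CPM. The remaining genes of the 10 were Fn1, fibronectin, Igfbp5, an IGF-binding protein, and Tmem176a.

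**Figure D4:**
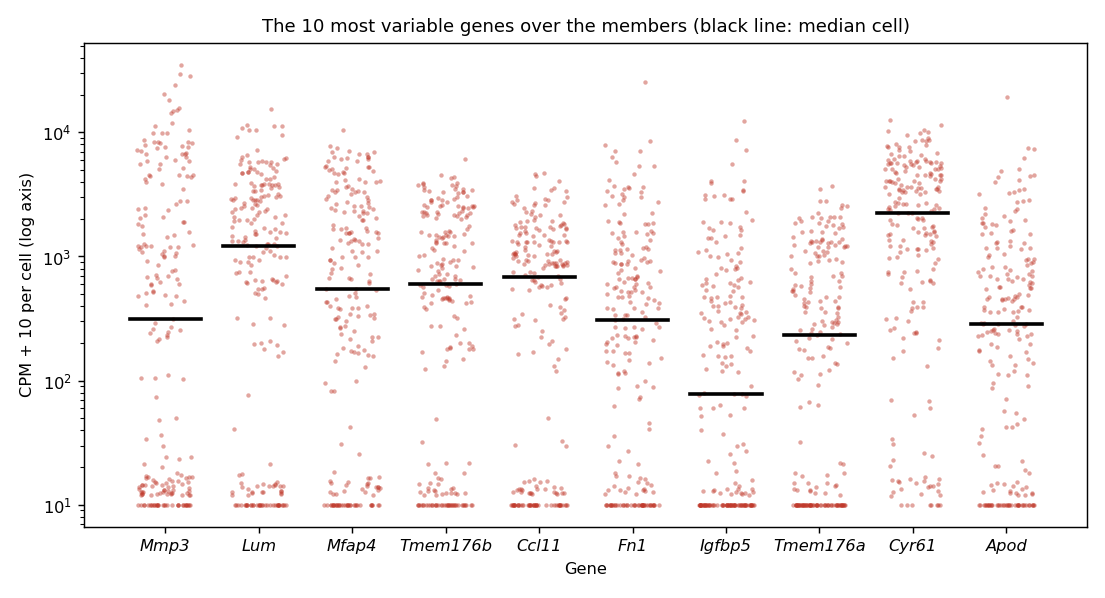
CPM plus 10 (log axis) of the 10 genes with the largest SD over the 215 members; each point is 1 cell and the black line is the median cell. Lum, Mfap4, Tmem176b and Ccl11 show a band near the floor of 10 and a cloud above 100, with 3 to 7 cells between 10 and 100 CPM.

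Members with Ccl8 mostly had Ccl11 too, and both genes lie in the chemokine cluster of chromosome 11 (Ccl11 at 82057832 to 82062955, Ccl8 at 82115185 to 82116799, GRCm38.p6). After thinning, 71 members had a read of Ccl8, and 67 of them, 94.4%, had one of Ccl11, against 57.6% of the members without Ccl8. Ccl2 and Ccl7, from the same cluster, had a read in 1 and 2 of the Ccl8 cells. Over the 215 members the Spearman correlation of Ccl8 with Ccl11 was 0.49, the highest of 3302 genes, whose median was near 0 (-0.0011). Next were Itm2b at 0.49, Igfbp4 at 0.48, Rarres2, the secreted attractant chemerin, at 0.48 and Sepp1, a selenium carrier, at 0.46. Podn, Npc2, Bace2, Serpina3n and Timp1 completed the 10, down to 0.42. The cells share 1 column set, and the correlation of Ccl8 with total reads was 0.15.

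Aox3 followed another pattern. It had a read in 57.7% of the members with Ccl8 and 45.1% of those without, and its correlation with Ccl8 was 0.09. Its own highest correlation was 0.43 with Ces2g, a carboxylesterase of a group with close copies, which was itself higher in the members, at 281 CPM against 120 CPM in the others. Cxcl12 followed at 0.37. On the negative side Smoc2 was first, at -0.36. Ccl8 and Aox3 thus marked partly different members.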

How the data were processed

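Single lung cells were sorted into plates and sequenced with SMART-seq2. The columns compared were those past the Dcn and epithelial limits: 313 of 374 in Mural3, 71 of 128 in Mural1 and 57 of 233 in Mural2. The authors deposited raw read counts per gene and cell (21948 rows, the eGFP reporter included). They also deposited scores, which are the reads times 500000 over the column total, rounded: all 33009792 scores were within 0.5 of that value. The submitters' processing notes name STAR 2.4.2a as the aligner and mm10 as the genome. How reads were assigned to genes, and which cells were dropped, is not given in the sources used here. Counts were used throughout, and the scores in 1 alternative.

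Levels are a gene's summed reads over the summed column totals of a group, scaled to 1000000 (CPM). Intervals are exact at 95%: Poisson for levels, Clopper-Pearson for shares of cells and conditional for folds. Each cell was thinned to 50000 reads (seed 1) for shares of cells. For folds, a side below 3 reads was counted as 3. The genes that chose the members were left out of all counts, so 21942 were compared. With 1 sample a side there was no test, and leaving out a replicate was not possible. The size rule was tested on simulated data. No doublet caller was run, and cells with at least 4 endothelial, leukocyte or epithelial markers were left out in an alternative. TMM factors came from edgeR 4.0.16 in R 4.3.3, and the rest was computed in Python 3.11.15 with numpy 2.4.6, pandas 2.3.3, scipy 1.17.1 and matplotlib 3.10.9. No 2 columns held identical values.

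The genes named are the 15 largest folds in each direction, up to 4 members past the rule of each of 18 gene lists (536 of 544 entries measured) or else its most abundant, the marker genes (158 of 165 entries measured), the genes of the rule, the 10 most variable and the 10 most correlated with Ccl8. Genes named beyond these were chosen after their values were seen: Peg3, Igsf10, Sdhaf2, Itm2a, Scp2, Ces2g, Wisp2, Ppp6c, Spon1, Cd82, Pwp1, Bcl2l1, Cfb, Ccl2, Ccl7 and Cct8. A few genes that these choices pick are not reported here. Predicted genes and ribosomal or mitochondrial genes entered the counts without being named. The members, their marks and the gene lists were chosen with earlier results of these data known. Coordinates and promoters are from RefSeq (GRCm38.p6), the build family of mm10.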

Additional observations from a re-analysis of the deposited data

Results flagged for a closer look

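Of the 84 genes lower in the Mural3 members, 4 passed the size rule in the opposite direction in Mural1 and Mural2, which is what drew attention to them. Over all 21942 genes 0.984% were higher there, but many were too low to pass. Whether 4 is more than genes of like level give was not tested. The difference between the sets of columns was not tested, since each group is 1 sample, and a difference in genotype between the sets cannot be told apart from it. Spon1, a secreted matrix protein, had 264 CPM in the members and 823 CPM in the other Mural3 fibroblasts, but 398 CPM within the same limits in Mural1 and Mural2 and 162 CPM outside them, a log2 difference of 1.30. Cd82, a tetraspanin of the cell surface, had 101 CPM in the members and 249 CPM in the others, and 155 CPM within and 48.4 CPM outside the limits in Mural1 and Mural2, a log2 difference of 1.68. Pwp1, a WD-repeat protein that lost its call in Mural3 in 2 of the 12 alternatives, had 59.5 CPM in the members and 135 CPM in the others, and a log2 difference of 1.79 in Mural1 and Mural2. Bcl2l1, an inhibitor of cell death, had 22.7 CPM in the members and 63.4 CPM in the others, and a log2 difference of 1.07 in Mural1 and Mural2. All 4 were positive in Mural1 alone and in Mural2 alone, with the lowest value of 0.65 for Bcl2l1 in Mural1.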

How the results depend on the processing

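The counts of higher and lower genes in the members (45 and 84) stayed within 1.5 times under every change of scaling or cell choice tried, and no gene past the rule changed sign in any of them. They moved with the thresholds: at 10 CPM and 10% of cells 256 were higher and 393 lower, with no low filter 3035 and 5939, and at 4-fold 2 and 13. In Mural1 and Mural2 the same 3 settings gave 932, 3571 and 44 higher genes beside 216, and 690, 3010 and 14 lower genes beside 177. Mural1 alone, added after seeing the data, gave 398 and 427. At 4-fold, the Col4a3/Col4a4 class gave 25 and 9, and the Aqp1 class 32 and 41. Leaving out the highest cell of each side for each gene, also added after seeing the data, gave 258 and 60 against the Col4a3/Col4a4 class and 157 lower genes against the Aqp1 class. It removes a larger share of the cells from the smaller side. Between 93 and 128 of the 129 genes kept their call under the settings that kept the 2-fold limit and at least the main level limits; the fewest remained with Dcn of at least 1000 CPM. No paired analysis was possible because no column name gives an animal or a replicate number. Depth limits the low genes: 3 reads are worth 0.0377 CPM in the members and 0.0856 CPM in the others.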

Other observations

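Of 92, 91, 95 and 96 Mural3 columns in plate rows A to D, E to H, I to L and M to P, 57, 77, 86 and 93 passed the Dcn and epithelial limits, and the members were 68.4%, 66.2%, 73.3% and 66.7% of these. Ccl8 was higher in the members in each set of rows, at 127, 58.3, 42.9 and 93.8 CPM, against 20.2, 12.9, 17.5 and 7.18 CPM in the others. Smoc2 was lower in each, at 198, 322, 292 and 231 CPM in the members, against 1867, 1064, 1777 and 989 CPM in the others. Rows are parts of a plate and not replicates. In the endothelial column sets, 2 of 243 EC1 columns, 1 of 275 EC2 columns and 0 of 251 EC3 columns passed the Dcn and epithelial limits, and 0 lay within all 4.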
